A study of Mus musculus with 6 samples.

Results

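The genes described here encode the CXC and CX3C chemokine ligands Cxcl1, Cxcl2, Cxcl5, Cxcl9, Cxcl10, Cxcl12, Cxcl13, Cxcl14, Cxcl16 and Cx3cl1. They were chosen by symbol from a table of 25755 genes, and 9 of the 10 were in it. Cxcl2 was not analysed here. The labels give whole optic nerves of 6 mice, sequenced in bulk. Of these, 3 had sham surgery (mice 1 to 3, incision without a crush). The other 3 had optic nerve crush of both nerves (ON-CR, mice 4 to 6). Surgery was at 6 weeks of age and the nerves were taken at 12 weeks, given as 3 months in the labels. All 6 mice, the sham mice included, were NF1flox/flox;hGFAP-Cre, in which a Cre recombinase under the human GFAP promoter deletes Nf1 in neuroglial progenitors and their progeny, so the nerve also holds many cells with intact Nf1. The comparison asks which ligands differ in the nerve 6 weeks after a crush. The paper reports that optic gliomas form after ON-CR in mice of this genotype. It describes larger nerves with more cells, among them T cells and tumor-associated monocytes, than after sham surgery. In wild-type mice it found no change of nerve volume or proliferation after the crush. The labels do not give tumor status. Which part of a difference goes with injury and which with tumor was not tested.

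Chemokines are small secreted or membrane-bound proteins that steer leukocytes through receptors coupled to G proteins. The CXC class has 1 residue between its first 2 cysteines and the CX3C class has 3. CXC ligands with the residues Glu-Leu-Arg ahead of the cysteines act on Cxcr2 and draw neutrophils. Cxcl9 and Cxcl10 are induced by interferon and act on Cxcr3 of activated T cells, Cxcl12 acts on Cxcr4, and Cxcl13 acts on Cxcr5 of B cells. Cxcl16 and Cx3cl1 are made as transmembrane proteins that proteases release, and neuronal Cx3cl1 is read by Cx3cr1 of microglia.

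The spacing that gives the family its names is shown here because it sets the roles apart. These are coding stretches of GENCODE transcripts on GRCm38, read 5′ to 3′ in frame, with the codons of the first 2 cysteines in capitals. Codons for Glu-Leu-Arg stand just before the first cysteine codon in Cxcl1, Cxcl2 and Cxcl5 and in no other of the 10 ligands.
Cxcl1: aatgagctgcgcTGTcagTGCctgcagacc
Cxcl5: acggagctgcgtTGTgttTGCttaaccgta
Cxcl10: aggacggtccgcTGCaacTGCatccatatc
Cxcl13: acaaacttaaaaTGTaggTGTtctggagtg
Cxcl14: gacgggtccaagTGTaagTGTtcccggaag
Cx3cl1: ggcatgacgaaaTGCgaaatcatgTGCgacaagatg
Between the capitals lies 1 codon in the 9 CXC ligands and 3 codons in Cx3cl1. On GRCm38, Cxcl5 (chr5:90759360-90761624) and Cxcl1 (chr5:90891241-90893115) lie in 1 cluster of chromosome 5, and Cxcl9 (chr5:92321347-92328079) and Cxcl10 (chr5:92346638-92348889) in another, with Cxcl13 (chr5:95956951-95961068) on the same chromosome. Cxcl12 is on chromosome 6, Cx3cl1 on chromosome 8, Cxcl16 on chromosome 11 and Cxcl14 on chromosome 13.

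The deposited values are read estimates that the authors scaled by 1 factor per library. Depth was 19892892 to 23620997 estimated reads in the sham libraries and 17414035 to 18978379 in the ON-CR libraries, and 1 read was worth 0.885 to 1.06. Limma called 540 of 25755 genes between the groups, at an adjusted p at or under 0.05, which is 2.10% of the table. Nf1 itself was at 343 to 447 in sham mice and at 380 to 438 in ON-CR mice. Xist, made from the inactive X chromosome, was at 2.14 to 30.9 in sham mice and at 2708 to 6357 in ON-CR mice, while the Y-linked Ddx3y was at 1291 to 1645 in sham mice and at 976, 4.19 and 0 in ON-CR mice 4, 5 and 6. The library of ON-CR mouse 4 thus carried both transcripts, and the labels give no sex. The labels give 1 mouse per library, while the paper's section on RNA extraction and PCR describes pooling mice into samples. Whether these libraries were pooled is not stated. Sex and surgery cannot be told apart in any comparison here. ON-CR mouse 6 stood apart in plasma cell markers, whose sum over 8 genes was 120389 against 1460 to 4996 in the other libraries. The airway protein gene Bpifa1 was at 7568 in sham mouse 3, at 4579 and 5894 in ON-CR mice 5 and 6, and at no more than 22.3 elsewhere. The oligodendrocyte gene Mbp, which marks nerve tissue, was at 369255 or more in every library.

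Of the 9 ligands, Cxcl10 rose and Cxcl14 fell after ON-CR, and 7 did not pass the test. Against 2.10% of all genes called, 0.971% higher and 1.13% lower, this is 1 ligand in each direction. The 3 sham and 3 ON-CR values did not overlap for the same 2 of 9 ligands, a share close to the 21.6% of all genes. The mean was higher after ON-CR for 5 ligands and lower for 4, and the median log2 fold change was 0.44, against 0.03 over all genes. An unadjusted p under 0.05 was reached by 4 ligands, Cxcl10, Cxcl13, Cxcl14 and Cxcl16, against 15.6% of all genes. Whether more of a transcript reflects more cells of a type or more RNA per cell cannot be told apart in bulk nerve.

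**Figure D1:**
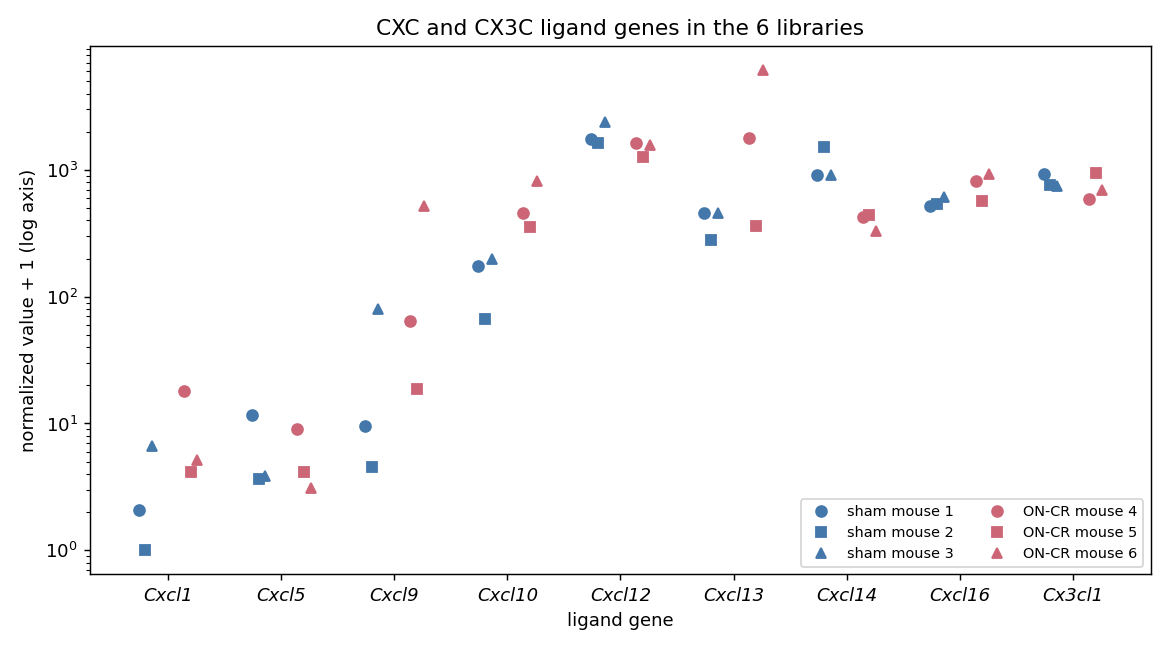
Normalized value plus 1 (log axis) of the 9 ligand genes in each library, sham mice in blue and ON-CR mice in red, with a symbol for each mouse. Cxcl10 is higher and Cxcl14 lower in every ON-CR mouse than in every sham mouse, while Cxcl9 and Cxcl13 spread most among the ON-CR mice.

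Levels of different genes were compared per kilobase of the longest coding transcript. In sham nerves Cxcl14 had the highest level per kilobase on this measure, with a mean of 611 and a range of 498 to 831. This order depends on the length chosen, which was 5627 bases for Cxcl12 and 1827 for Cxcl14. Shorter transcripts were not tried. Before division by length, Cxcl12 was above Cxcl14 in every sham mouse, with means of 1919 and 1115. Cxcl13 (243 to 397), Cxcl12 (290 to 424) and Cx3cl1 (227 to 278) followed, and Cxcl12 overlapped with Cxcl13, as Cxcl13 did with Cx3cl1. Cxcl16 (193 to 228) overlapped with Cx3cl1 by a narrow margin. Cxcl10 ranged from 48.4 to 145 per kilobase, below every value of Cxcl16. Cxcl9 (1.23 to 27.3), Cxcl5 (1.69 to 6.74) and Cxcl1 (0 to 5.91) were the lowest and overlapped with each other. In ON-CR nerves the mean level per kilobase was highest for Cxcl13 (2405, range 314 to 5347), then Cxcl10 (400, range 260 to 600), and Cxcl14 had moved to the sixth place with 218 (range 181 to 242). The ON-CR ranges of Cxcl16, Cxcl12, Cx3cl1 and Cxcl14 overlapped with at least 1 neighbour in that order.

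Cxcl10, the interferon-induced ligand of Cxcr3, was the ligand that rose. Sham mice 1, 2 and 3 had normalized values of 173, 65.5 and 196, against 458, 352 and 812 for ON-CR mice 4, 5 and 6. All ON-CR values lay above all sham values, with mouse 6 highest and sham mouse 2 lowest. The mean went from 145 ± 69.7 to 541 ± 241 (SD, n = 3 each), which is 3.73-fold. Limma gave a log2 fold change of 1.95 (SE 0.41, 95% interval 1.04 to 2.86, adjusted p = 0.0407), and the exact two-sided permutation test gave 0.1, the smallest p that 3 against 3 allows. The estimate stayed between 1.46 and 2.24 when each mouse was left out. The call was lost without sham mouse 1 (adjusted p = 0.1), sham mouse 2 (0.12), sham mouse 3 (0.0704), ON-CR mouse 4 (0.067) and ON-CR mouse 6 (0.237), and held without ON-CR mouse 5 (0.0173). It was also lost with a pseudocount of 0.1, in a robust fit and without the mean-variance trend (0.0507, 0.168 and 0.26). Exons of Art3 lie on the opposite strand of Cxcl10, and the library kit does not mark strand. Art3 itself was at 100 to 153 in sham mice and at 104 to 152 in ON-CR mice, a log2 fold change of -0.06.

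Cxcl9, the neighbouring Cxcr3 ligand, was at 8.49, 3.54 and 78.9 in the sham mice, against 63.8, 17.8 and 514 after ON-CR. The groups overlapped, with sham mouse 3 above ON-CR mice 4 and 5. Limma gave a log2 fold change of 2.50 (SE 1.21, 95% interval -0.19 to 5.20, adjusted p = 0.355), and the interval reaches from no change to a larger one than that of Cxcl10. Leaving out each mouse gave 1.21 to 3.71, with no call. Per kilobase, Cxcl9 amounted to 2.30%, 2.53% and 18.8% of Cxcl10 in the sham mice and to 6.53%, 2.37% and 29.6% in the ON-CR mice, so the ratio was highest in sham mouse 3 and ON-CR mouse 6. Cxcl11, which also binds Cxcr3, was at 11.7, 3.54 and 37.6 in sham mice and at 33.9, 14.7 and 112 in ON-CR mice (log2 fold change 1.60, adjusted p = 0.396). The receptor Cxcr3 was at 32.9, 7.08 and 34.7 in sham mice and at 61.8, 9.44 and 219 in ON-CR mice (log2 fold change 1.29, adjusted p = 0.572). Mouse 6 was the highest ON-CR library for Cxcl9, Cxcl10, Cxcl11 and Cxcr3, and mouse 5 the lowest.

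The T cell markers, 9 of 9 in the table, had a summed value of 282 to 748 in sham mice. The sums were 589, 265 and 1781 for ON-CR mice 4, 5 and 6, and 0 of 9 markers passed the test with limma. Among them Cd3e, a chain of the T cell receptor complex, was at 24.4 to 67.6 in sham mice and at 127, 28.3 and 243 in ON-CR mice. In ON-CR mouse 4 Cd3e was the only marker of this list above every sham mouse, so it does not stand for the list there. In ON-CR mouse 5 Cxcl10 was thus above every sham value, while T cell markers were under the lowest sham sum. The part of T cells in the Cxcl10 result was not tested. Of the interferon genes, receptors and signalling genes that act ahead of these ligands, 12 of 13 were measured and 0 passed, with a median log2 fold change of 0.03, as over all genes.

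Promoters are shown for Cxcl10 and Cxcl14, the 2 ligands that passed the test, and for Cxcl13, whose ON-CR values ran from 361 to 6149. These are RefSeq windows on GRCm38.p6, from 250 bases before to 50 bases after the start site, 5′ to 3′ on the strand of the gene, at chr5:92348840-92349139 (minus strand), chr5:95956689-95956988 (plus strand) and chr13:56296502-56296801 (minus strand). Of the 9 ligands, 7 had a promoter in the table used. Capitals mark matches on either strand to an ISRE core (GAAA and GAAA with any 2 bases between), a GAS element (TTCNNNGAA), an NF-kB site (GGGA and CC with any 4 bases between) or a TATA box (TATAAA).
Cxcl10: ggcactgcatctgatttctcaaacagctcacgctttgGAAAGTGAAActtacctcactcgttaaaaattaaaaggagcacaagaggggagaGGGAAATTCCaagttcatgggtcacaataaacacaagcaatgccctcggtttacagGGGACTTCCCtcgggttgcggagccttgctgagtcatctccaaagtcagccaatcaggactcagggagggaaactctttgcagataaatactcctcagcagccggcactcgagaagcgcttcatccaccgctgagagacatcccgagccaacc
Cxcl13: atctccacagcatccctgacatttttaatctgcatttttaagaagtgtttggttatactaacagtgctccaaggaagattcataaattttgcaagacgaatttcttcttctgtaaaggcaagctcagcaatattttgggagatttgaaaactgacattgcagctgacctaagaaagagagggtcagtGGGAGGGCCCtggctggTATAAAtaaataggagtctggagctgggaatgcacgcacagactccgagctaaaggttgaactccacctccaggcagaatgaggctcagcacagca
Cxcl14: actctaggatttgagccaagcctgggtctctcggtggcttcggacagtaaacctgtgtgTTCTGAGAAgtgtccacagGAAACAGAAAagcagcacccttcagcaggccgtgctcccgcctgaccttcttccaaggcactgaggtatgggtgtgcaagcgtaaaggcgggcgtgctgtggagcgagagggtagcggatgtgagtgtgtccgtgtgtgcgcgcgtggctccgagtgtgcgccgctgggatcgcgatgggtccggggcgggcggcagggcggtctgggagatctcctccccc
The Cxcl10 window held an ISRE core at -213 to -204 from the start site and NF-kB matches at -159 to -150 and -103 to -94, the latter on both strands at the same bases. In the Cxcl13 window there were an NF-kB match at -63 to -54 and a TATA box at -46 to -41. The Cxcl14 window held a GAS match at -191 to -183 and an ISRE core at -172 to -163. Among 32851 promoter windows of the same length, the ISRE core was in 3.44%, the GAS element in 8.30%, the NF-kB site in 20.7% and the TATA box in 13.6%. Cxcl10, which rose, and Cxcl14, which fell, thus both held an ISRE core. A match describes letters only, and no binding was measured.

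**Figure D2:**
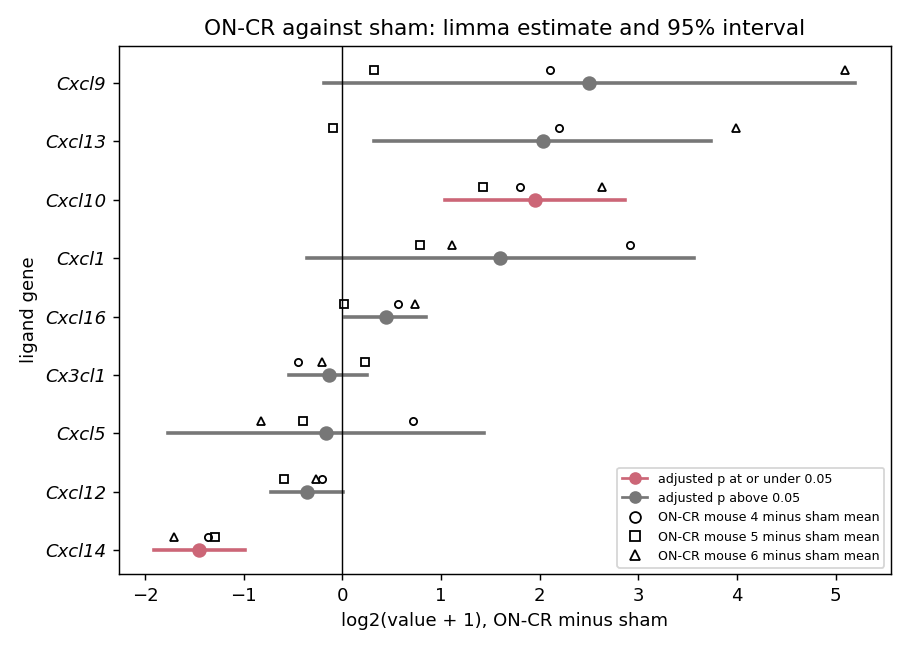
Log2 fold change on the log2(value + 1) scale, ON-CR minus sham, for the 9 ligands, as the limma estimate (filled point) with its 95% interval, in red where the adjusted p is at or under 0.05. Open symbols give each ON-CR mouse minus the sham mean, and those of Cxcl13 run from -0.10 in mouse 5 to 3.99 in mouse 6.

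Cxcl13, the B cell attractant of lymphoid follicles, differed more among the ON-CR mice than any other ligand but Cxcl9. It was at 456, 279 and 456 in sham mice and at 1788, 361 and 6149 in ON-CR mice 4, 5 and 6. ON-CR mice 4 and 6 were above every sham mouse, and mouse 5 lay within the sham range. The mean went from 397 to 2766, with an SD of 3016 over the 3 ON-CR mice. Limma gave a log2 fold change of 2.03 (SE 0.77, 95% interval 0.32 to 3.74, adjusted p = 0.233), which did not pass. Without ON-CR mouse 5 the log2 fold change was 3.09 and passed (adjusted p = 0.00289), and without ON-CR mouse 6 it was 1.05. Its receptor Cxcr5 was at 4.24, 3.56 and 6.61 in sham mice and at 1.02, 3.15 and 28.0 in ON-CR mice, values of a few reads except in mouse 6.

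B cell and plasma cell markers stood beside Cxcl13 as follows. The B cell markers (6 of 7 measured) summed to 78.8 to 208 in sham mice and to 272, 220 and 841 in ON-CR mice 4, 5 and 6. Of these 6, only Cd22 passed the test, a lectin that restrains B cell receptor signalling, with a log2 fold change of 3.29 (adjusted p = 0.00441). It was at 10.6 to 34.0 in sham mice and at 185, 133 and 215 in ON-CR mice. Cd22 alone carried the sums of mice 4 and 5 above the sham range: the other 5 B cell markers summed to 68.2 to 174 in sham mice and to 86.7, 87.0 and 626 in ON-CR mice. Plasma cell markers, 0 of 8 called, summed to 3323, 1460 and 120389 in ON-CR mice, with Igkc, the kappa light chain, at 83710 in mouse 6. Among the ON-CR mice, mouse 6 was highest and mouse 5 lowest for Cxcl13 and for the T cell and plasma cell sums, but mouse 4, second in Cxcl13, had a plasma cell sum within the sham range of 2977 to 4996. Of 8 measured genes of lymphoid organization, 0 passed, and the lymphotoxin gene Ltb was at 7.08 to 17.8 in sham mice and at 23.9, 7.34 and 82.0 in ON-CR mice. Igha, the IgA heavy chain, was at 21450 in mouse 6, where the airway gene Bpifa1 was at 5894. In sham mouse 3 and ON-CR mouse 5, with Bpifa1 at 7568 and 4579, Igha was at 588 and 13.6. The part of lymphocytes in the Cxcl13 values, in the nerve or in tissue taken along with it, was not tested.

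**Figure D3:**
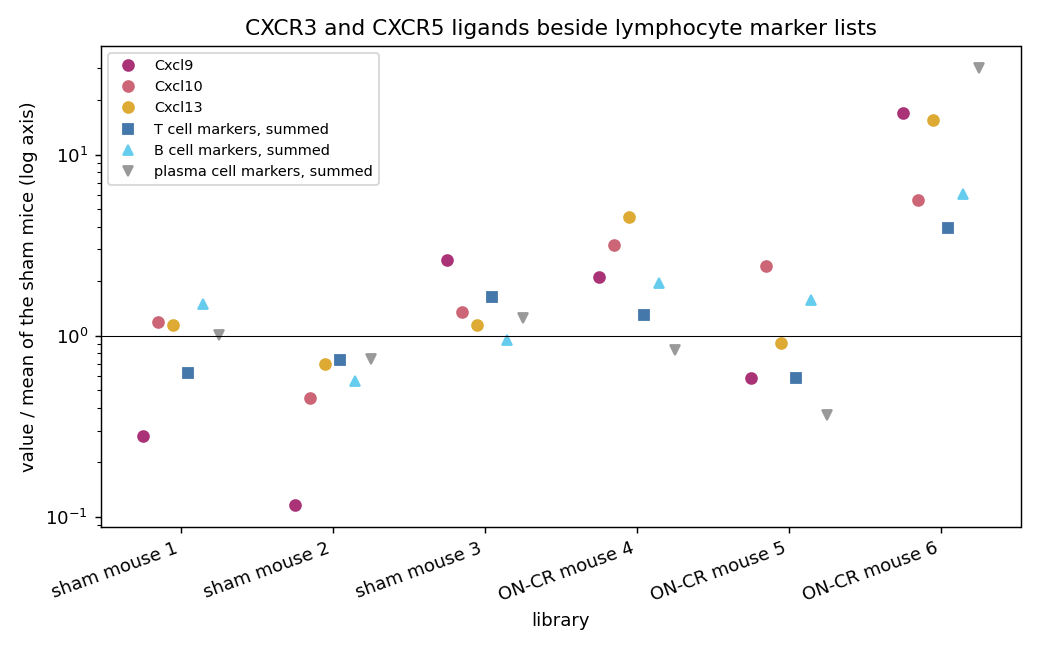
Cxcl9, Cxcl10 and Cxcl13 (circles) and the summed T cell, B cell and plasma cell markers in each library, as a ratio to the mean of the 3 sham mice (log axis, libraries side by side with no order). ON-CR mouse 6 is highest in all 6 series, and in ON-CR mouse 5 Cxcl10 stays above 1 while Cxcl9, Cxcl13, T cell and plasma cell markers lie below it. The B cell sum of ON-CR mice 4 and 5 is mostly Cd22.

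Cxcl14, an evolutionarily conserved ligand made in brain and epithelia whose receptor is debated, was the ligand that fell. It was at 909, 1517 and 919 in the sham mice, against 422, 442 and 330 after ON-CR. The groups did not overlap, and the ON-CR values lay close together. The mean went from 1115 ± 348 to 398 ± 59.7 (SD, n = 3 each), or 35.7% of the sham mean. Limma gave a log2 fold change of -1.45 (SE 0.21, 95% interval -1.91 to -0.99, adjusted p = 0.00733), and the exact two-sided permutation p was 0.1, the smallest possible. The estimate was -1.58 to -1.21 when each mouse was left out. The call was lost without ON-CR mouse 6 (log2 fold change -1.32, adjusted p = 0.0858) and held without each other mouse. It was also lost without the mean-variance trend (adjusted p = 0.161).

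The oligodendrocyte markers moved with Cxcl14. Of the 8, 7 fell and 0 rose, against 1.13% of all genes called lower, with a median log2 fold change of -0.88. None of the 8 overlapped between groups, against 21.6% of all genes without overlap. Mbp, a protein of the myelin sheath, was at 814697 to 1296440 in sham mice and at 369255 to 412899 in ON-CR mice (log2 fold change -1.42, adjusted p = 0.0117). Mobp, another myelin protein gene, changed by -1.21 (adjusted p = 0.0055), and Cldn11 (-0.48, adjusted p = 0.118) was the marker that did not pass. Of 7 astrocyte markers and 4 markers of oligodendrocyte precursors, 0 passed, with median log2 fold changes of 0.29 and 0.19. Fibroblast markers all had a negative log2 fold change (7 of 7, median -0.29), and 0 passed. Among 10 measured epithelial markers 5 were lower and 5 higher after ON-CR (median -0.32), and 0 passed. Within the sham group Cxcl14 was highest in mouse 2, whereas Mbp and Mobp were highest in mouse 1. The part of oligodendrocytes, or of any other of these cell types, in the Cxcl14 result was not tested.

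**Figure D4:**
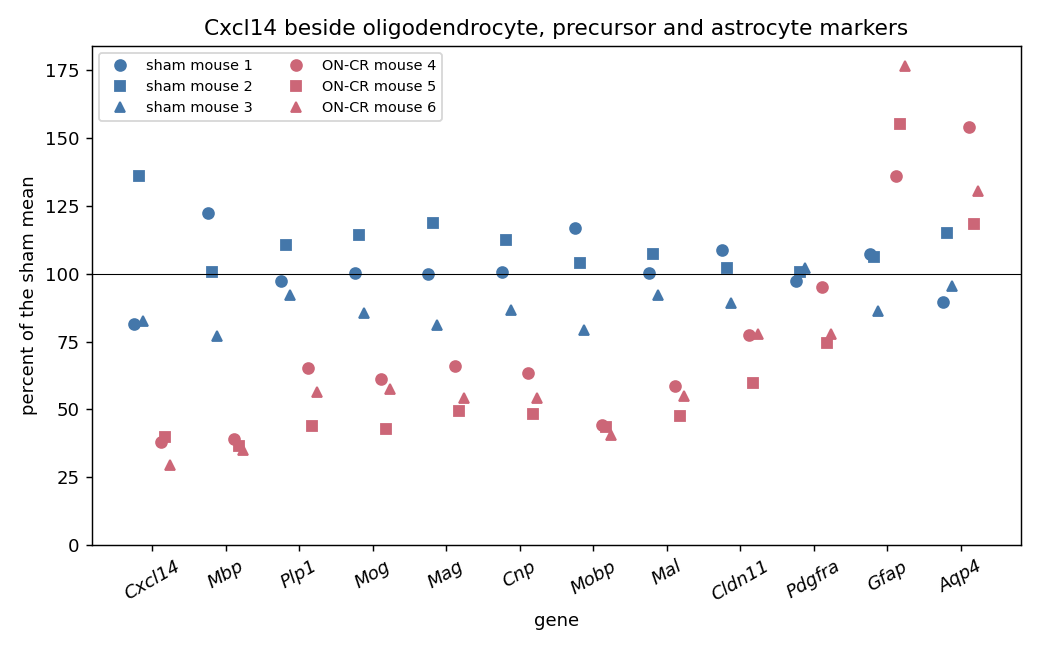
Value of Cxcl14, 8 oligodendrocyte markers, the precursor marker Pdgfra and the astrocyte markers Gfap and Aqp4 in each mouse, as percent of the mean of the 3 sham mice (line at 100). Cxcl14 and the 8 oligodendrocyte markers lie lower in every ON-CR mouse than in every sham mouse, and Gfap and Aqp4 lie higher, although neither passed the test. The last 3 genes do not stand for their lists. Of all 7 astrocyte markers 5 were higher and 2 lower after ON-CR. Of all 4 precursor markers 3 were higher and only Pdgfra was lower.

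The homeostatic ligand Cxcl12, which holds Cxcr4-bearing cells in place, was at 1741, 1632 and 2384 in sham mice and at 1632, 1260 and 1571 in ON-CR mice. The groups met at 1632, with sham mouse 3 highest. The log2 fold change was -0.36 (SE 0.16, 95% interval -0.72 to 0.01, adjusted p = 0.329). Its receptor Cxcr4 was at 57.3, 45.2 and 20.7 in sham mice and at 72.8, 61.9 and 61.3 in ON-CR mice, without overlap, and did not pass (log2 fold change 0.77, adjusted p = 0.361). Ackr3, which takes up Cxcl12 without signalling through G proteins, was at 237 to 314 and at 301 to 378 (0.29, adjusted p = 0.453). Dpp4, a peptidase that trims the amino end of Cxcl10 and Cxcl12, was at 257 to 319 and at 139 to 232 (-0.63, adjusted p = 0.175).

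Among the transmembrane ligands, Cxcl16 was at 520, 542 and 615 in sham mice and at 821, 564 and 933 in ON-CR mice. Only ON-CR mouse 5 lay within the sham range. The log2 fold change was 0.44 (SE 0.18, 95% interval 0.03 to 0.85, adjusted p = 0.283), and without ON-CR mouse 5 it was 0.65 and passed (adjusted p = 0.0377). Zmynd15 has exons on the other strand of Cxcl16 and was much lower, at 19.2 to 33.0 and at 14.4 to 78.0. Its receptor Cxcr6, found on memory T cells, was at 77.5, 63.7 and 148 in sham mice and at 202, 71.3 and 192 in ON-CR mice (0.63, adjusted p = 0.523), and there too mouse 5 was the ON-CR library within the sham range.

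Cx3cl1 was at 921, 754 and 752 in sham mice and at 589, 948 and 695 in ON-CR mice. The groups overlapped, with ON-CR mouse 5 highest of all 6. The log2 fold change was -0.14 (SE 0.18, adjusted p = 0.759), and the 95% interval of -0.54 to 0.25 bounds what these mice could show. Markers of neurons, a source of Cx3cl1, summed to 13589 in ON-CR mouse 5 and to 3250 to 6987 in the others. Its receptor Cx3cr1, the fractalkine receptor of microglia, was at 2885, 2294 and 2052 in sham mice and at 4979, 2731 and 4434 in ON-CR mice (log2 fold change 0.72, adjusted p = 0.128). Of 9 microglial markers 1 rose, against 0.971% of all genes called higher. This was Aif1, which encodes a cytoskeletal protein of activated microglia (1.22, adjusted p = 0.026). Of the 9, the log2 fold change was positive for 6 and negative for 3, with a median of 0.33. The sheddases Adam10 (0.10) and Adam17 (-0.05), which release both ligands from the membrane, had adjusted p of 0.734 and 0.923.

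The neutrophil ligands Cxcl1 and Cxcl5 were near the limit of detection. Cxcl1 was covered by 1, 0 and 6 estimated reads in sham mice and by 17, 3 and 4 in ON-CR mice, with the highest count in ON-CR mouse 4. Its log2 fold change was 1.60 (95% interval -0.36 to 3.56, adjusted p = 0.419). Cxcl5 was covered by 10, 3 and 3 reads and by 8, 3 and 2 reads (-0.17, 95% interval -1.77 to 1.43, adjusted p = 0.939). A floor of 3 reads corresponds to values of 2.66 to 3.18, and 4 of the 6 Cxcl5 counts were at or under it, so differences within that interval were not detectable here. The receptor Cxcr2 was at 1.77 to 4.24 in sham mice and at 1.04 to 3.99 in ON-CR mice. Of 9 measured neutrophil markers 0 passed. Their log2 fold changes were positive for 6 and negative for 3, with a median of 0.37. The highest was that of Csf3r, the receptor of the granulocyte growth factor, at 114 to 170 in sham mice and at 179 to 462 in ON-CR mice (1.11, adjusted p = 0.121). Cxcl1 is a target of NF-kB, and 10 genes of NF-kB signalling were measured (cytokines and receptors that start it, its subunits and its feedback regulators). Of these, the cytokine Il1a rose, with 15.9 to 22.1 in sham mice and 50.3 to 107 in ON-CR mice (log2 fold change 2.10, adjusted p = 0.0195). The other 9 did not pass, and 0.971% of all genes were called higher.

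Among further CXC ligands outside the 10, 4 of 6 were measured and 0 passed. The platelet chemokines Pf4 (203 to 261 in sham mice, 133 to 205 in ON-CR mice) and Ppbp (62.9 to 87.3 and 28.3 to 69.6) had log2 fold changes of -0.47 and -0.90, with adjusted p of 0.305 and 0.276. Of 8 measured receptors 0 passed with limma, and the median log2 fold change was 0.68, against 0.03 over all genes. For 2 of the 8 (Cxcr4 and Ackr1) the groups did not overlap, a share close to the 21.6% of all genes. Ackr1, which binds inflammatory chemokines on venules, was at 29.8 to 66.5 in sham mice and at 84.7 to 225 in ON-CR mice (1.44, adjusted p = 0.116). Of 7 chemokine-processing proteases Mmp12, a macrophage elastase that cleaves CXC ligands, rose (6.57 to 14.9 and 39.8 to 90.3, log2 fold change 2.28, adjusted p = 0.0346). Of 15 genes of signal transduction 2 rose, Dock2, an activator of Rac in leukocyte migration (1.33, adjusted p = 0.0139), and Fgr, a Src family kinase of myeloid cells (1.93, adjusted p = 0.0336). Beside these 1 of 7 proteases and 2 of 15 signalling genes, 0.971% of all genes were called higher. Of 15 alternative fits, 12 called Cd22, 10 called Dock2, and 8 called each of Mmp12, Fgr, Il1a and Aif1.

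The genes whose pattern over the 6 libraries was most like that of the 2 called ligands are given as a description, among 14436 genes with a mean value of at least 50. Pearson r on log2(value + 1) with Cxcl10 was 0.998 for Col11a1 and 0.996 for Ptbp3 and Gm5566, none of which passed the test (adjusted p 0.0954, 0.145 and 0.418). With Cxcl14 it was 0.998 for Rcn2, 0.997 for Erbb3 and 0.996 for Evi5l, of which Rcn2 passed (log2 fold change -0.96, adjusted p = 0.00926). The points share the 2 surgery groups, so any gene with separated groups can reach a high r.

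**Figure D5:**
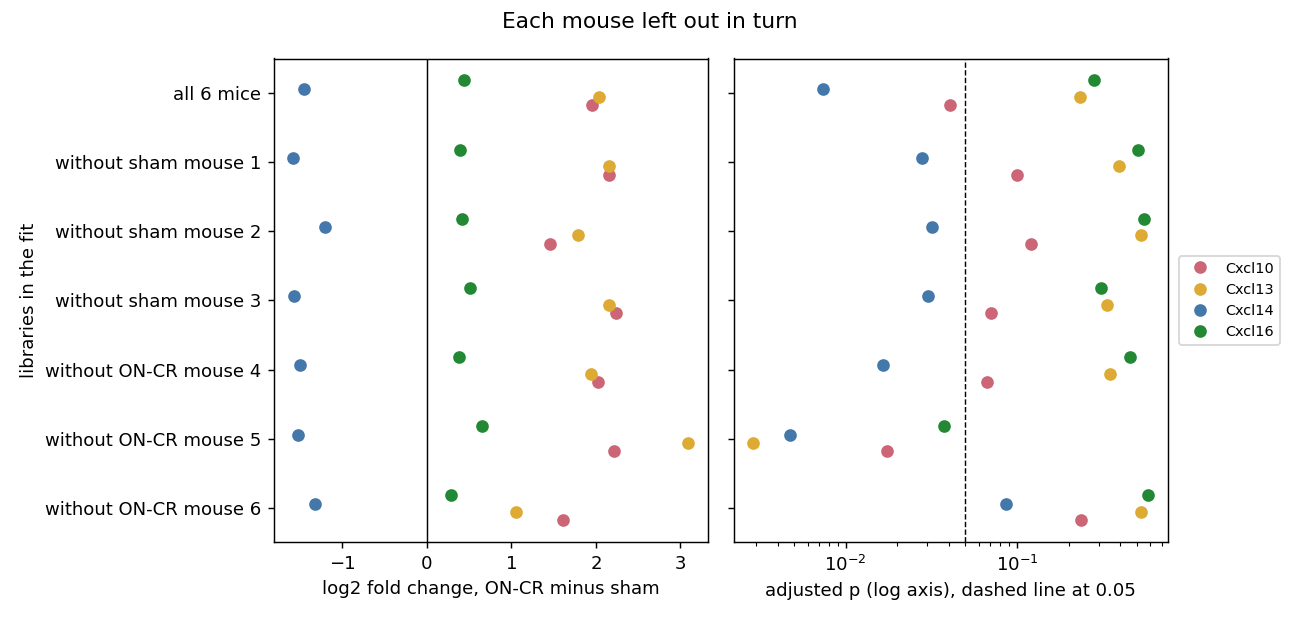
Log2 fold change (left) and adjusted p (right, log axis, dashed line at 0.05) of 4 ligands with all 6 mice and with each mouse left out. Cxcl14 passes in all fits but that without ON-CR mouse 6, Cxcl10 passes with all mice and without ON-CR mouse 5, and Cxcl13 and Cxcl16 pass only without ON-CR mouse 5.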

How the data were processed

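RNA of whole optic nerves from perfused mice was sequenced after library construction from 10 ng of total RNA with a kit that does not mark strand. Alignment and quantification by the authors used DRAGEN. Counts on Ensembl genes of mm10 were median-normalized by the authors in Partek Flow 10.0 and compared in the study with DESeq2. The deposited values are a normalized signal per gene, not raw counts. Once each library was divided by what 1 read is worth, whole reads came out for 66.9% to 69.5% of values (within 0.02 reads), so no count model was run, and these estimated reads served only for depth and the floor of 3 reads, which covers counting error only. All 25755 genes entered limma 3.58.1 (R 4.3.3) as log2(value + 1), the variance following a trend on the mean, and p-values were adjusted by Benjamini-Hochberg over the whole table. Every adjusted p is from limma, from this fit unless another setting or a left-out mouse is named, and fold changes on this scale understate those of low genes. The fit was tested on simulated data. The labels number each library as a separate mouse. The paper's section on RNA extraction and PCR gives 2 mice per sample, and does not say whether this held for sequencing. Mouse numbers here therefore name libraries. Within groups the libraries differed by more than sampling noise (chi-square of 15.1 to 42.6 per degree of freedom). Mice were grouped by the labels, and all 6 were used. The 10 ligands and the lists of related genes and markers were chosen with earlier results of these data known. Named genes are the ligands, their receptors, genes of the lists that passed, defining markers set beside a ligand, and the 3 genes most like each called ligand. Ltb, Dpp4, Adam10, Adam17, Csf3r, Cd3e, Pf4 and Ppbp, and Nf1, Xist, Ddx3y, Bpifa1, Art3 and Zmynd15, were named outside that rule or after their values were seen. Coding stretches, positions and transcript lengths are from GENCODE on GRCm38, and promoters from RefSeq on GRCm38.p6. Alternatives were pseudocounts of 0.1 and 2, a mean value of at least 10, TMM scaling, library size only, a robust fit, no trend, library quality weights and leaving out each mouse. A fit with no trend and the filter was added after seeing the data.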

Additional observations from a re-analysis of the deposited data

How the results depend on the processing

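Of 540 genes called, 250 rose and 290 fell, or 46.3% higher. With library size only, 421 rose and 195 fell (68.3% higher), and the median log2 fold change of all genes shifted from 0.03 to 0.15, while Cxcl10 (2.08) and Cxcl14 (-1.32) kept their calls. Without the mean-variance trend 7 genes were called (3388 at an unadjusted p under 0.05), and 26 without the trend among genes with a mean value of at least 10. Leaving out each mouse gave 67 (without ON-CR mouse 6) to 854 (without ON-CR mouse 5) called genes, with 192, 123, 258 and 462 without sham mice 1, 2 and 3 and ON-CR mouse 4. The share of higher calls ran from 29.7% without ON-CR mouse 4 to 63.4% without sham mouse 2. Of the 9 ligands, 2 were called. Only 1 was called, Cxcl14, with pseudocount 0.1 and with the robust fit, in which Cxcl10 had an adjusted p of 0.0507 and 0.168. None was called by limma without the trend, with or without the filter (0 ligands, 2 at an unadjusted p under 0.05), in which Cxcl10 had adjusted p of 0.26 and 0.172 and Cxcl14 of 0.161 and 0.0924. Leaving out each mouse gave 0 (without ON-CR mouse 6) to 4 (without ON-CR mouse 5) called ligands. The log2 fold change of Cxcl5 turned to 0.06 with quality weights and ranged from -0.61 to 0.38, with 0.38 without sham mouse 1 and 0.16 without ON-CR mouse 6, and that of Cx3cl1 ranged from -0.33 to 0.01, the latter without ON-CR mouse 4. The cause of these changes was not tested. Cxcl1 and Cxcl5 gave no value under the filter. No paired analysis was possible because the groups share no replicate numbers. With 3 mice a group, the exact permutation p cannot fall below 0.1, and at the depth of these libraries Cxcl1 and Cxcl5 rest on a few reads.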
